A study of Drosophila melanogaster with 48 samples.

Results

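Gene expression in the brains of Y160C male flies was compared with that of WG2 male flies. The 12 libraries were all those whose labels give a male sex and the genotype Y160C or WG2, out of 48 in the series: 6 Y160C libraries (3 at week 3 and 3 at week 0) and 6 WG2 libraries (3 at week 3 and 3 at week 0). Y160C flies carry NAGLU Y160C, an allele named for the exchange of an amino acid. KO and W422X males (6 libraries each) and Y160C and WG2 females (6 libraries each) enter only where they are named. WG2 carries no NAGLU change by its labels and serves as the control, and nothing in the labels calls it the parental line of the mutants. The series asks how gene expression differs in a fly model of mucopolysaccharidosis IIIB with mutation, sex and age. Each library came from 20 pooled brains. The labels give a single name per genotype, do not state how many lines carried it, and name no driver or transgene. Whether the replicates came from separate crosses is not stated, so a p-value here covers only the variation among such pools, which may be technical.

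Naglu encodes a lysosomal enzyme that removes terminal N-acetylglucosamine residues from heparan sulfate, a sugar chain carried by cell surface and matrix proteins. In humans, loss of the enzyme lets heparan sulfate fragments accumulate in lysosomes and causes mucopolysaccharidosis IIIB, a childhood disease in which the brain is affected most. An amino acid change can impair such an enzyme while its messenger RNA is still made.

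Total counts ran from 19100887 to 55801160 in the Y160C males (median 23012695.5) and from 14729091 to 30276657 in the WG2 males (median 18958913.5). The neuronal marker elav lay at 643 to 697 CPM in Y160C and at 608 to 718 CPM in WG2, and the glial marker repo at 154 to 197 CPM in Y160C and at 150 to 206 CPM in WG2, so both markers of the labelled tissue were present in every library. CPM are counts relative to library size. For single genes the library sizes were scaled with TMM factors, while the marker levels of this paragraph and all summed levels used the plain totals. The Y160C week 3 replicate 3 library stood apart: genes that average under 0.5 CPM took 0.267% of its counts, against 0.0255% to 0.105% in the other Y160C libraries and 0.0294% to 0.0811% in WG2. Its summed photoreceptor and phototransduction markers reached 7735 CPM, against at most 3869 CPM in the other Y160C libraries and 2979 to 3524 CPM in WG2. Its summed cuticle and trachea markers reached 568.1 CPM, against at most 267.4 CPM in the other Y160C libraries and 101.5 to 166.0 CPM in WG2. Calls are therefore given with and without this library.

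Naglu messenger RNA was present in all Y160C males. Naglu (FBgn0014417, BDGP6.54 2L:8408888-8411868, minus strand) stood at 25.4, 24.01 and 18.01 CPM in Y160C at week 3 and 21.5, 20.2 and 18.8 CPM at week 0, and at 23.9, 28.03 and 25.3 CPM in WG2 at week 3 and 21.8, 26.96 and 17.95 CPM at week 0. The ranges of the genotypes overlapped. Naglu averaged 21.3 ± 2.90 CPM in Y160C and 23.97 ± 3.69 CPM in WG2 (SD, n = 6 each), a log2 fold change of -0.17 ± 0.10 (SE) that was not called (edgeR adjusted p 0.683). KO males held 2.08 ± 0.865 CPM and W422X males 6.66 ± 1.25 CPM (SD, n = 6 each). Y160C males lay above KO males by 3.41 ± 0.16 (adjusted p 3.68e-12) and above W422X males by 1.68 ± 0.14 on the log2 scale (adjusted p 1.56e-07).

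The Y160C brains had little RNA of a long noncoding RNA on chromosome arm 2L, less RNA of the neighbouring gene bib, and more of 7 small nucleolar RNAs (snoRNAs), 6 of which guide pseudouridylation of 28S ribosomal RNA. Of 13992 genes tested, 15 passed edgeR's quasi-likelihood test with the week as a block (0.107%), here termed called, with a threshold of 0.05 on the p-value after Benjamini-Hochberg adjustment: 10 were higher (0.0715%) and 5 lower (0.0357%) in Y160C. Changes were at least 2-fold in 10 of the 15. Whether ranges overlap is given below as description only, since the share of all tested genes without overlap was not counted. The median log2 fold change over all tested genes was 0.003 with a median SE of 0.13, and 658 genes (4.70%) had an unadjusted p under 0.05. Without Y160C week 3 replicate 3, 27 genes were called (0.193%), among them all 15. In brain tissue, fewer cells of a type and less RNA per cell cannot be told apart.

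The lowest ratio was that of lncRNA:CR13130 (FBgn0040965, 2L:9983671-9984743, minus strand). It stood at 0.578, 0.539 and 1.60 CPM in Y160C at week 3 and 1.07, 1.09 and 1.23 CPM at week 0, against 7.55, 8.99 and 7.48 CPM in WG2 at week 3 and 8.40, 6.49 and 8.14 CPM at week 0. All 6 Y160C libraries lay below all 6 WG2 libraries, with 11 to 65 reads in Y160C and 127 to 260 reads in WG2. The log2 fold change was -2.94 ± 0.23 (adjusted p 2.05e-05). The gene bib (big brain, FBgn0000180, 2L:9984645-9995538, plus strand) encodes a membrane protein of the aquaporin family that limits how many neural precursors form in the fly embryo. It stood at 13.3, 16.4 and 14.9 CPM in Y160C at week 3 and 21.9, 16.5 and 17.7 CPM at week 0, against 41.4, 42.5 and 40.4 CPM in WG2 at week 3 and 36.3, 46.5 and 37.3 CPM at week 0. Again no library of one genotype reached the other, and the log2 fold change was -1.29 ± 0.10 (adjusted p 2.05e-05).

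The annotated spans of bib and lncRNA:CR13130 overlap by 99 bases on opposite strands. How the counting treated strand is not known, so reads from the shared bases could belong to either. Within 100 kb on either side of bib, 51 genes were tested and 3 called: bib, lncRNA:CR13130 and CG13126, whose ratio is given below. The other genes of this window had log2 fold changes with a median of 0.02, the highest being Muc30E at 2.18 (adjusted p 0.683). Naglu lies on the same chromosome arm. By arm, 7 of the 2636 tested genes of 2L were called (0.266%), 4 of 2793 on 2R (0.143%), 2 of 3362 on 3R (0.0595%), 2 of 2118 on X (0.0944%) and 0 of 2764 on 3L. Within 1 Mb of Naglu, 1 of 238 tested genes was called (0.420%), CG18661.

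**Figure D1:**
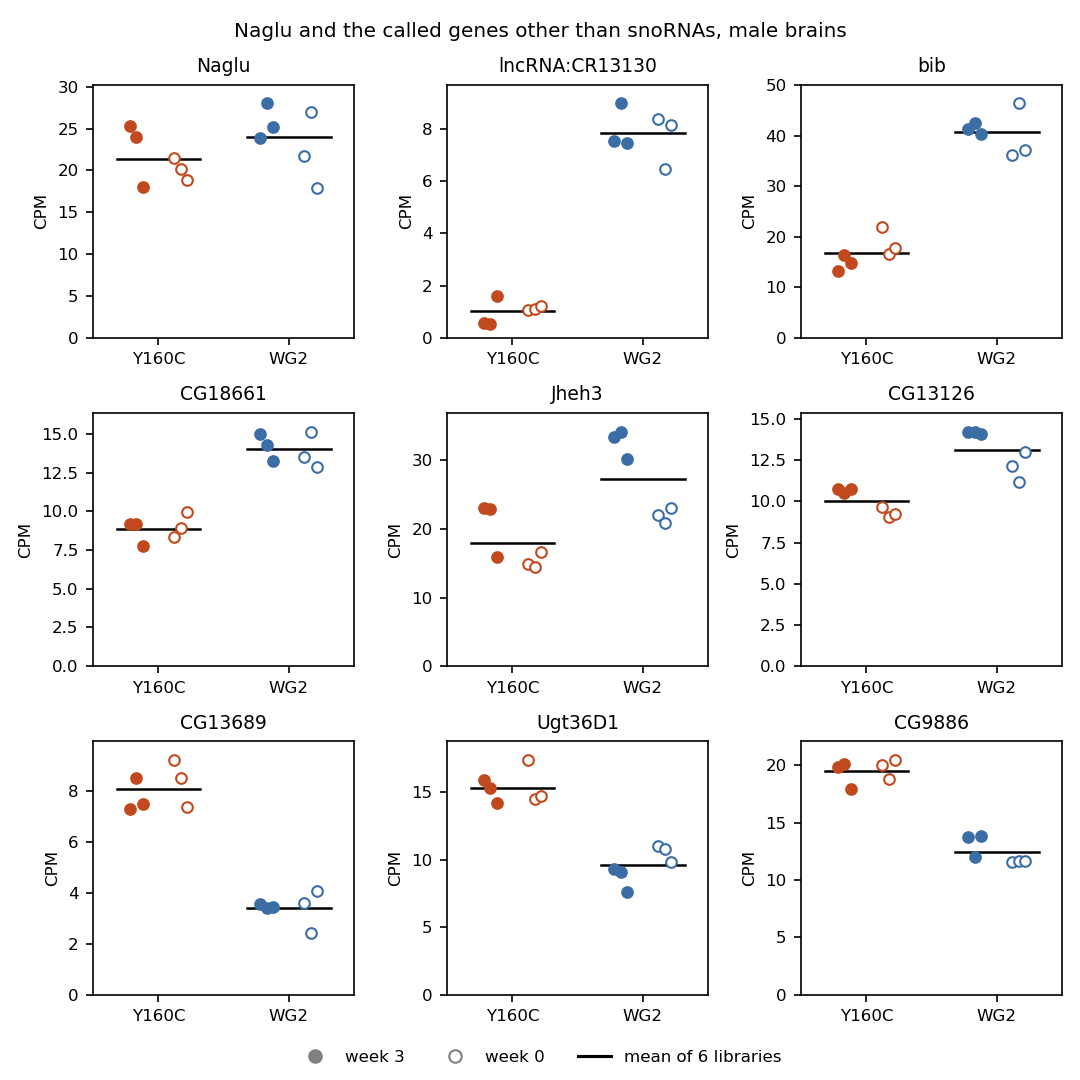
CPM of Naglu and of the 8 called genes other than snoRNAs in the 12 male libraries, with Y160C (orange) left of WG2 (blue), filled circles for week 3, open circles for week 0 and a line at the mean of 6 libraries. The genotypes overlap for Naglu and, over both weeks, for Jheh3, and are apart in the other panels, with lncRNA:CR13130 at no more than 1.60 CPM in Y160C.

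H/ACA snoRNAs pair with ribosomal RNA and direct the change of chosen uridines to pseudouridine; in flies most of them are cut from introns of protein-coding host genes. snoRNA:Psi28S-3436a (X:6742686-6742826, minus strand) had 115.3, 118.9 and 70.1 CPM in Y160C at week 3 and 102, 86.8 and 97.3 CPM at week 0, against 31.6, 29.9 and 31.98 CPM in WG2 at week 3 and 22.7, 15.7 and 19.4 CPM at week 0. The lowest Y160C library held over 2-fold as much as the highest WG2 library. Its log2 fold change was 2.002 ± 0.156 (adjusted p 4.45e-05). snoRNA:Psi28S-3436b (X:6742349-6742491), named for the same base of 28S rRNA and placed in the same host gene RpL17, averaged 25.9 ± 5.82 CPM in Y160C and 7.73 ± 3.33 CPM in WG2 (SD, n = 6 each), a log2 fold change of 1.80 ± 0.22 (adjusted p 0.00626).

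In the ribosomal protein gene RpS16, a second pair named for a shared base rose. snoRNA:Psi28S-1175a (2R:22607085-22607220, plus strand) stood at 26.9, 25.04 and 22.5 CPM in Y160C at week 3 and 18.5, 19.7 and 17.6 CPM at week 0, against 8.59, 7.36 and 3.91 CPM in WG2 at week 3 and 5.2, 3.08 and 5.09 CPM at week 0 (log2 fold change 1.98 ± 0.17, adjusted p 8.41e-05). snoRNA:Psi28S-1175b (2R:22607232-22607372) averaged 17.9 ± 4.92 CPM in Y160C and 6.002 ± 1.44 CPM in WG2 (SD, n = 6 each; 1.54 ± 0.17, adjusted p 0.00107). The genotypes did not overlap for either.

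Another pair lies in Hrb98DE, which encodes an RNA-binding protein of the hnRNP family. snoRNA:Psi28S-3305a (3R:28601698-28601847) ran from 3.53 to 6.08 CPM in Y160C (median 4.47) and from 1.36 to 2.13 CPM in WG2 (median 1.77), a log2 fold change of 1.35 ± 0.17 (adjusted p 0.00196). snoRNA:Psi28S-3305b (3R:28602340-28602489) ran from 3.32 to 4.46 CPM in Y160C (median 4.05) and from 1.27 to 2.36 CPM in WG2 (median 1.57; 1.25 ± 0.18, adjusted p 0.00670). The remaining called snoRNA, snoRNA:lola-b (2R:10536745-10536905, minus strand), lies within lola, a gene of many isoforms for transcription factors that guide axons. It ran from 3.67 to 6.44 CPM in Y160C and from 1.11 to 3.45 CPM in WG2 (1.17 ± 0.20, adjusted p 0.0270). These last 3 ranges of Y160C stayed above those of WG2, that of snoRNA:lola-b narrowly. The call of snoRNA:lola-b was lost in 11 of 23 other settings (adjusted p up to 0.142), among them the removal of any Y160C library but week 3 replicate 3, of WG2 week 0 replicate 1, or of WG2 week 3 replicate 1 or 2.

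The host genes themselves were not called. RpL17 averaged 350 ± 49.6 CPM in Y160C and 369 ± 47.3 CPM in WG2, and RpS16 averaged 202 ± 34.7 CPM in Y160C and 208 ± 37.3 CPM in WG2 (SD, n = 6 each). Hrb98DE averaged 295 ± 35.9 CPM in Y160C and 294 ± 40.2 CPM in WG2, and lola averaged 1292 ± 155 CPM in Y160C and 1390 ± 52.4 CPM in WG2 (SD, n = 6 each). Their log2 fold changes lay between -0.11 ± 0.09 for lola and 0.01 ± 0.10 for Hrb98DE. Reads of a snoRNA and reads of the surrounding intron cannot be told apart in these counts.

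Other snoRNAs of the same host genes were not called. Of 19 tested snoRNAs in the 4 host genes, 18 had a log2 fold change above 0 and 7 were called. In RpL17, snoRNA:Psi28S-1060 ran from 26.1 to 35.2 CPM in Y160C and from 7.88 to 23.7 CPM in WG2 without overlap, but was not called (0.9998 ± 0.2032, adjusted p 0.204). snoRNA:Psi28S-1232 of the same gene had a log2 fold change of 0.10 ± 0.43. In RpS16, snoRNA:Psi28S-1175c, named for the same base as the called pair, had 0.74 ± 0.25 (adjusted p 0.683). In Hrb98DE, snoRNA:Psi28S-3305c had -0.13 ± 0.47, and the other 4, snoRNA:Psi28S-3405a to snoRNA:Psi28S-3405d, had between 0.09 and 0.59. In lola, snoRNA:lola-c ran from 1.26 to 2.40 CPM in Y160C and from 0.375 to 0.821 CPM in WG2 (1.59 ± 0.33, adjusted p 0.170), and snoRNA:lola-a had 0.19 ± 0.12.

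**Figure D2:**
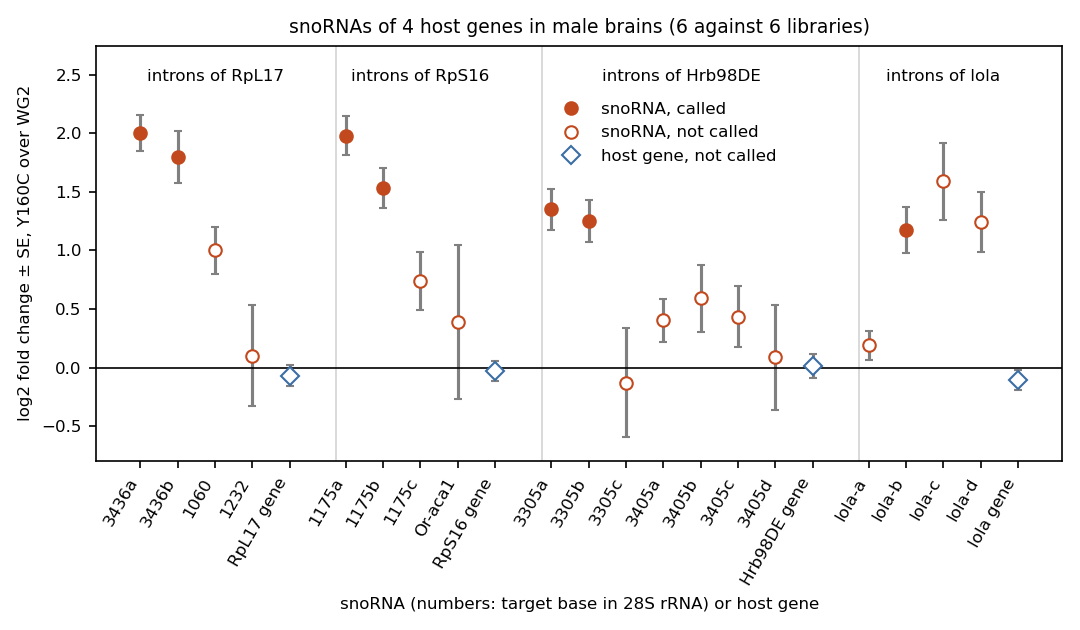
Log2 fold change ± SE of Y160C over WG2 in males (6 against 6 libraries) for the 19 tested snoRNAs of the 4 host genes that hold a called snoRNA and for the host genes (diamonds), with filled symbols for called ones. The called snoRNAs lie between 1.17 and 2.002 while the 4 host genes lie close to 0.

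Over the whole class, 7 of 136 tested snoRNAs were called, all higher, against 0.107% of all genes. Their median log2 fold change was 0.16, and 89 of the 136 lay above 0. Among the pseudouridylation guides, 86 of 106 in the table passed the filter on low counts, 6 were called higher and none lower, 53 lay above 0, and the median was 0.15 against 0.003 over all genes. Their summed level ran from 570 to 1358 CPM in Y160C (median 966) and from 363 to 1732 CPM in WG2 (median 660). The highest sum was that of WG2 week 3 replicate 1. A pair of abundant guides had a log2 fold change below 0 and was not called: snoRNA:Psi28S-291 averaged 59.9 ± 12.1 CPM in Y160C and 81.0 ± 35.7 CPM in WG2 (-0.43 ± 0.22, adjusted p 0.683), and snoRNA:Psi18S-1820 had -0.26 ± 0.45 (adjusted p 0.807). Just outside the threshold lay snoRNA:Psi18S-1347a (0.85 ± 0.15, adjusted p 0.0512) and snoRNA:Psi28S-3327a (1.35 ± 0.24, adjusted p 0.0513). Of the methylation guides, which direct addition of a methyl group to ribosomal RNA, 18 were tested and none was called by edgeR (median 0.28, and none at an unadjusted p under 0.05).

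Among genes other than snoRNAs, 3 were higher in Y160C. CG13689 (2L:602813-604430), named only by its annotation number, stood at 7.31, 8.53 and 7.47 CPM in Y160C at week 3 and 9.22, 8.51 and 7.38 CPM at week 0, against 3.56, 3.40 and 3.45 CPM in WG2 at week 3 and 3.62, 2.40 and 4.07 CPM at week 0 (1.24 ± 0.13, adjusted p 2.78e-04). CG9886 (2L:2420830-2424647) averaged 19.5 ± 0.964 CPM in Y160C and 12.4 ± 1.09 CPM in WG2 (SD, n = 6 each; 0.65 ± 0.07, adjusted p 4.44e-04). Ugt36D1 (2L:18823548-18826716), a UDP-glycosyltransferase of the family that attaches sugars to small lipophilic molecules, averaged 15.3 ± 1.18 CPM in Y160C and 9.59 ± 1.25 CPM in WG2 (SD, n = 6 each; 0.68 ± 0.09, adjusted p 0.00196). None of the 3 genes overlapped between genotypes. Ugt36D1 was the single called gene of 35 tested UDP-glycosyltransferases. The median of that family was 0.59 over the 12 libraries and -0.0021 without Y160C week 3 replicate 3.

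The remaining 3 lower genes changed by less than 2-fold. CG18661 (2L:8997605-8998544) averaged 8.89 ± 0.749 CPM in Y160C and 14.01 ± 0.948 CPM in WG2 (SD, n = 6 each) without overlap (-0.66 ± 0.08, adjusted p 0.00149). Jheh3 (2R:18860375-18862078), of the epoxide hydrolases that break down juvenile hormone, stood at 23.1, 22.9 and 15.9 CPM in Y160C at week 3 and 14.8, 14.5 and 16.6 CPM at week 0, against 33.4, 34.2 and 30.1 CPM in WG2 at week 3 and 22.1, 20.9 and 23.1 CPM at week 0. It was higher at week 3 in WG2, so the genotypes overlapped across weeks but not within a week (-0.59 ± 0.09, adjusted p 0.0129). Its neighbours in the family, Jheh1 and Jheh2, had -0.22 ± 0.10 and -0.22 ± 0.09 and were not called (adjusted p 0.683 each), and Jheh3 was the single call among 11 tested genes of juvenile hormone breakdown (median -0.04). The call of Jheh3 was lost in 6 of 23 other settings, among them the removal of Y160C week 0 replicate 2, WG2 week 0 replicate 3, or WG2 week 3 replicate 1 or 2 (adjusted p 0.0550 to 0.0827). CG13126 (2L:9952072-9954181) averaged 9.99 ± 0.774 CPM in Y160C and 13.1 ± 1.29 CPM in WG2 (SD, n = 6 each; -0.39 ± 0.07, adjusted p 0.0270), and this call was lost when any library other than Y160C week 3 replicate 3 was left out (adjusted p 0.0668 to 0.177).

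No gene of heparan sulfate turnover was called by edgeR. Of the genes for heparan sulfate degradation, 8 were tested, 1 lay above 0 and the median log2 fold change was -0.07; none had an unadjusted p under 0.05. Hgsnat, which acetylates the sugar that Naglu later removes, averaged 46.9 ± 6.06 CPM in Y160C and 48.1 ± 5.13 CPM in WG2 (-0.03 ± 0.10). The sulfamidase gene Sgsh averaged 7.51 ± 1.16 CPM in Y160C and 8.58 ± 1.03 CPM in WG2 (-0.20 ± 0.12). Idua, the iduronidase, averaged 22.1 ± 3.90 CPM in Y160C and 22.5 ± 3.24 CPM in WG2 (-0.02 ± 0.12). Ids, the iduronate sulfatase, averaged 8.88 ± 2.27 CPM in Y160C and 9.02 ± 3.14 CPM in WG2 (-0.02 ± 0.13). For Hgsnat, Idua and Ids the difference between the means was smaller than the SD of either genotype, and for Sgsh it was close to the SDs (n = 6 each). Of 19 tested genes for heparan sulfate synthesis and core proteins none was called, 2 lay above 0, and the median was -0.09, with 4 at an unadjusted p under 0.05. Without Y160C week 3 replicate 3 the medians were -0.02 for degradation and -0.04 for synthesis and core proteins.

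The lysosome gave the same count of 0 calls by edgeR. Medians were 0.06 over 28 lysosomal proteases and other hydrolases (1 at an unadjusted p under 0.05), -0.13 over 22 genes of the lysosomal membrane, proton pump and its regulator Mitf (1), -0.12 over 22 autophagy genes (4) and -0.11 over 15 genes of sphingolipid turnover (2). Without Y160C week 3 replicate 3 these medians were, in the same order, 0.04, -0.07, -0.07 and -0.09. The cathepsin gene CtsL1 averaged 111 ± 18.8 CPM in Y160C and 130 ± 6.80 CPM in WG2 (SD, n = 6 each; -0.23 ± 0.09, adjusted p 0.683). Of the Npc2 family, which carries sterols out of lysosomes in mammals, 7 members were tested with none called. The median of the family was 0.12 without Y160C week 3 replicate 3. Its member Npc2h averaged 2.85 ± 2.72 CPM in Y160C and 0.530 ± 0.349 CPM in WG2 (SD, n = 6 each; 2.29 ± 0.62, adjusted p 0.511). Npc2h ran from 1.07 to 8.14 CPM in Y160C and from 0.173 to 1.13 CPM in WG2, with overlap. Over all 42 gene lists, 39 held no called gene among 936 tested memberships. In simulated counts of 13992 genes for the same 12 libraries, without an effect of week, the test recovered 32.8% of 67 genes changed 1.5-fold. It recovered 55.2% of 67 changed 2-fold and 72.7% of 66 changed 4-fold. The simulation gave 111 calls, against 15 in the real data, so the adjusted threshold was stricter in the real data. These shares may therefore overstate what could be found here, and they do not measure it for the lists above.

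Marker lists of neurons and glia had medians of -0.10 (14 genes) and -0.17 (15 genes) with no call by edgeR, and 0 and 4 of them at an unadjusted p under 0.05. Without Y160C week 3 replicate 3 these medians were -0.04 and -0.11. The cuticle, photoreceptor and gut medians moved further with that library. The median over 94 cuticle and trachea genes was 1.03, with 91 above 0, and 0.06 without that library. Over 26 photoreceptor genes it was 0.35, and -0.01 without it, and over 34 gut enzyme genes 0.61, and -0.15 without it. Summed fat body markers ran from 1711 to 3266 CPM in Y160C and from 1803 to 2631 CPM in WG2. Of single fat body genes, Yp1 lay at 1.3 to 6.48 CPM in Y160C and at 0.836 to 5.55 CPM in WG2. Fbp1 lay at 0.555 to 4.66 CPM in Y160C and at 0.997 to 1.32 CPM in WG2. Lsp2 lay at 0.0487 to 0.471 CPM in Y160C and at 0 to 0.157 CPM in WG2. The accessory gland gene Acp26Aa lay at 0 to 1.2 CPM in Y160C and at 0 to 0.429 CPM in WG2. The part of these markers in the gene results was not tested.

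At week 3, 2 stress peptide genes stood far above WG2. TotA and TotX belong to the Turandot family of secreted peptides, which flies make under heat, infection and other stress. TotA (3R:20871036-20871700) had 34.2, 86.3 and 61.2 CPM in Y160C at week 3, against 1.97, 1.70 and 1.38 CPM in WG2 at week 3 (5.16 ± 0.40, adjusted p 6.67e-04). At week 0 it had 1.98, 2.60 and 3.81 CPM in Y160C, against 0.614, 1.01 and 1.13 CPM in WG2, again without overlap but not called (1.67 ± 0.43, adjusted p 0.424). TotX had 6.28, 13.1 and 10.7 CPM in Y160C at week 3, against 0.602, 0.849 and 0.288 CPM in WG2 at week 3 (4.12 ± 0.52, adjusted p 0.00323). Of 6 tested Turandot genes, 2 were called at week 3, 4 lay above 0 and the median was 4.11. TotC and TotM had 5.57 ± 0.88 and 4.10 ± 0.81 and were not called (adjusted p 0.0958 each), while TotE had -0.08 and TotF -0.37. At week 0 the median of the family was 0.46. None of the 12 tested genes of the JAK-STAT pathway, which induces Turandot genes in flies, was called by edgeR at week 3 (median -0.11, 1 at an unadjusted p under 0.05); its target Socs36E had -0.15. Without Y160C week 3 replicate 3, TotA had 5.15 ± 0.46, TotX 4.07 ± 0.54, and TotM 4.26 was called as well (adjusted p 0.0229). Summed muscle markers were higher in the same libraries, at 413.5, 848.5 and 692.7 CPM in Y160C at week 3, against 340.8, 406.0 and 383.8 CPM in WG2 at week 3. Of 18 tested muscle genes 16 lay above 0 at week 3, with a median of 1.01, or 0.86 without Y160C week 3 replicate 3, and none was called by edgeR (5 at an unadjusted p under 0.05). Summed haemocyte markers were 1070, 1135 and 1228 CPM in Y160C at week 3, against 1266, 1235 and 1253 CPM in WG2. Summed fat body markers were 2300, 2767 and 3266 CPM in Y160C at week 3, against 2195, 2198 and 2631 CPM in WG2, with overlap. The part of these markers in the week 3 results was not tested.

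In all, 15 genes were called at week 3 (0.107%), 12 higher (0.0858%) and 3 lower (0.0214%). The scavenger receptor gene emp (2R:24976456-24986070), of the CD36 class, had 20.2, 23.1 and 20.7 CPM in Y160C, against 5.75, 5.66 and 4.31 CPM in WG2 (2.02 ± 0.23, adjusted p 0.00134). The ABC transporter gene snu (3R:28675041-28695939), needed for the barrier of the fly cuticle, had 17.3, 18.6 and 25.1 CPM in Y160C, against 6.57, 6.87 and 8.22 CPM in WG2 (1.49 ± 0.16, adjusted p 6.67e-04). Jhbp13, of the family of juvenile hormone binding proteins, had 3.92, 9.26 and 5.96 CPM in Y160C, against 0.602, 1.27 and 0.978 CPM in WG2 (2.747 ± 0.457, adjusted p 0.0330). None of the 3 overlapped between genotypes at week 3, but all 3 were picked as called genes. The other higher genes were CG12814 (1.31), CG11147 (0.88), CG13689 (1.16), Ugt36D1 (0.80) and 3 of the snoRNAs above. The lower genes were lncRNA:CR13130 (-3.13), bib (-1.48) and CG18661 (-0.70). Without Y160C week 3 replicate 1 the count of called genes was 78, without WG2 week 3 replicate 2 or 3 it was 9 or 8, and without Y160C week 3 replicate 3 it was 18, 13 of them among the 15. The call of Jhbp13 was lost in 9 of 19 other settings, among them without Y160C week 0 replicate 3 or week 3 replicate 2, WG2 week 0 replicate 1, or any WG2 week 3 library (adjusted p 0.0562 to 0.237). That of CG18661 was lost in 13, among them without Y160C week 0 replicate 2 or 3 or week 3 replicate 2 or 3, WG2 week 0 replicate 1 or 3, or any WG2 week 3 library (adjusted p 0.0614 to 0.222). That of snoRNA:Psi28S-1175a was lost without WG2 week 3 replicate 2 (adjusted p 0.0555).

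At week 0, 20 genes were called (0.143%), 8 higher (0.0572%) and 12 lower (0.0858%). Among the lower ones were Cat and Sod3, which encode enzymes that remove reactive oxygen. Cat (3L:18822604-18828188), the catalase gene, had 43.3, 38.6 and 38.1 CPM in Y160C, against 71.0, 100 and 64.5 CPM in WG2 (-0.97 ± 0.15, adjusted p 0.0157). At week 3 it had 50.9, 58.2 and 46.4 CPM in Y160C, against 53.4, 56.1 and 48.5 CPM in WG2, with overlap. Sod3, an extracellular superoxide dismutase, had 87.1, 84.8 and 89.8 CPM in Y160C at week 0, against 177, 147 and 154 CPM in WG2 (-0.87 ± 0.15, adjusted p 0.0483). Cat and Sod3 were the called ones of 14 tested oxidative stress genes, whose median was -0.08. The call of Cat was lost when any 1 of the Y160C week 0 libraries was left out (edgeR adjusted p 0.0546 to 0.144). Thor (2L:3478434-3479612), which encodes the translation inhibitor 4E-BP, had 5.30, 5.91 and 5.10 CPM in Y160C at week 0, against 17.02, 10.2 and 12.8 CPM in WG2 (-1.29 ± 0.20, adjusted p 0.0224). At week 3 Thor had 13.8, 20.1 and 20.1 CPM in Y160C, against 11.9, 17.6 and 15.1 CPM in WG2, with overlap. CG9512 had 57.0, 41.5 and 40.8 CPM in Y160C at week 0, against 136, 216 and 104 CPM in WG2 (-1.71 ± 0.23, adjusted p 0.0162), and overlapped between genotypes at week 3 (-0.23 ± 0.24).

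Further lower genes at week 0 belonged to several lists. The papilin gene Ppn of the basement membrane, which haemocytes secrete, had 71.0, 59.8 and 48.3 CPM in Y160C, against 110, 121 and 90.8 CPM in WG2 (-0.85 ± 0.15, adjusted p 0.0494). Over the 12 libraries Ppn was the single call of 15 basement membrane genes and of 15 haemocyte genes, each with a median of -0.38. Without Y160C week 3 replicate 3, 3 basement membrane genes were called lower, among them LanA (-0.60, adjusted p 0.0420) and LanB1 (-0.46, adjusted p 0.0448). The transcription factor gene sr, induced by neuronal activity, had 106.5, 67.5 and 78.4 CPM in Y160C, against 146, 174 and 142 CPM in WG2 (-0.87 ± 0.16, adjusted p 0.0483), and was the single call of 12 activity-regulated genes, all of which lay below 0 (median -0.15). CG7966 (-0.96), GILT3 (-0.95), CG9628 (-0.74) and Mipp1 (-0.68) were lower too, beside lncRNA:CR13130 (-2.76) and bib (-1.10). Higher were snoRNA:Psi28S-3436a (2.30), snoRNA:Psi28S-3436b (2.16), snoRNA:Psi28S-1175a (2.06), snoRNA:Psi28S-1175b (1.26), CG13689 (1.31), CG9886 (0.76), the helicase gene Xpd (0.72) and the snoRNA FBgn0263459 on 2R, which had 16.9, 19.1 and 18.3 CPM in Y160C, against 6.20, 3.03 and 5.36 CPM in WG2 (1.89 ± 0.24, adjusted p 0.00840).

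Summed glia markers were lower in Y160C at week 0, at 3655, 3877 and 4384 CPM, against 5260, 4863 and 4673 CPM in WG2, without overlap. Of the 15 glia genes 12 lay below 0 at week 0 (median -0.16), and none was called by edgeR (4 at an unadjusted p under 0.05). Without Y160C week 3 replicate 3, 1 of them was called, Gat (-0.71 ± 0.10, adjusted p 0.0033). Summed fat body markers were 1754, 1765 and 1711 CPM in Y160C at week 0, against 1860, 1803 and 1894 CPM in WG2. The part of these markers in the week 0 results was not tested.

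The week 0 count moved with single libraries. It was 9, 6 or 8 without Y160C week 0 replicate 1, 2 or 3, and 11 without WG2 week 0 replicate 1 or replicate 3. Since the spread was estimated over both weeks, week 3 libraries mattered as well: the count was 31 without Y160C week 3 replicate 1, 83 (0.592%) without Y160C week 3 replicate 3, and 12 without WG2 week 3 replicate 3. All 20 were among the 83, of which 21 were higher and 62 lower. The 83 also held CtsL1 (-0.38, adjusted p 0.0448), Npc2g (-1.66, adjusted p 0.0346) and wun2 of sphingolipid turnover (-0.53, adjusted p 0.0167). Thor lost its call in 8 of 19 other settings, CG9512 in 5 and Cat in 4. The removal of Y160C week 0 replicate 1, 2 or 3 ended the calls of all 3 of these genes (adjusted p 0.0546 to 0.170), that of WG2 week 0 replicate 1 the calls of Thor (0.169) and CG9512 (0.117), and that of WG2 week 0 replicate 3 the call of Thor (0.0623). The call of snoRNA:Psi28S-3436b was lost without Y160C week 0 replicate 2 or 3 or WG2 week 0 replicate 3 (adjusted p 0.0788 to 0.0899). That of CG13689 was lost without Y160C week 0 replicate 1 (adjusted p 0.0546) or 2 (0.0632), and that of the snoRNA FBgn0263459 without Y160C week 0 replicate 2 (0.0710). The lower genes Sod3, Ppn, sr, CG7966, GILT3, CG9628 and Mipp1 were followed singly only without Y160C week 3 replicate 3. Over all genes, lower calls numbered 4, 3 and 3 without Y160C week 0 replicate 1, 2 and 3, against 12 with all libraries.

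The 13 protein-coding genes of the mitochondrial genome showed opposite signs at the 2 weeks without a call by edgeR. Their summed level was 8193, 8181 and 9283 CPM in Y160C at week 3, against 4765, 6345 and 7693 CPM in WG2 at week 3. At week 0 it was 5981, 8089 and 9644 CPM in Y160C, against 13020, 10760 and 10740 CPM in WG2. The groups did not overlap at either week on plain totals; with TMM factors they overlapped at week 3, where Y160C replicate 3 had 7432 CPM and WG2 replicate 3 had 7813 CPM. All 13 lay above 0 at week 3 (median 0.39, 2 at an unadjusted p under 0.05 where 9.30% of all genes were, lowest adjusted p 0.471) and below 0 at week 0 (median -0.88, 10 at an unadjusted p under 0.05 where 3.47% of all genes were, lowest adjusted p 0.314). The difference between the weeks had a median of 1.33 with 11 genes at an unadjusted p under 0.05, and a lowest adjusted p of 0.432. These transcripts share a genome and are cut from common precursors, so they are not independent.

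The difference between the genotypes itself differed between week 3 and week 0 for 2 genes (0.0143% of those tested), snu and emp. For snu the log2 fold change was 1.49 at week 3 and -0.69 ± 0.15 at week 0, when it had 7.45, 10.3 and 9.10 CPM in Y160C, against 13.7, 14.7 and 15.1 CPM in WG2 (difference 2.18 ± 0.22, adjusted p 0.00155). For emp it was 2.02 at week 3 and -0.59 ± 0.22 at week 0, when it had 3.22, 6.75 and 4.76 CPM in Y160C, against 7.75, 5.91 and 8.84 CPM in WG2 (difference 2.61 ± 0.32, adjusted p 0.00945). At an unadjusted p under 0.05, 621 genes differed (4.44%). The differences of TotA (3.49 ± 0.61, adjusted p 0.173), TotX (3.96 ± 0.70, adjusted p 0.118) and Thor (1.57 ± 0.28, adjusted p 0.121) were not called. The count was 54, 4 or 9 without Y160C week 3 replicate 1, 2 or 3, 1 without WG2 week 0 replicate 1 and 5 without WG2 week 3 replicate 1. Without WG2 week 0 replicate 1, emp was not called (adjusted p 0.0578). The week 3 and week 0 calls had 6 genes in common (6 of 15 and 6 of 20). These were lncRNA:CR13130, bib, snoRNA:Psi28S-3436a, snoRNA:Psi28S-1175a, snoRNA:Psi28S-1175b and CG13689. The levels compared at each week come from different libraries. The filter, the scaling and the spread were shared by both weeks, so the calls of the weeks are not independent of each other. With the 5 libraries over 0.05% of counts in rarely expressed genes left out, a choice made after seeing the data, 1 library of each genotype remained at week 0, assumed to vary like the other groups. The week 0 calls of bib (-1.10, adjusted p 0.101), lncRNA:CR13130 (-2.60, 0.0550), snoRNA:Psi28S-1175a (2.57, 0.504) and CG13689 (1.92, 0.0905) and the week 3 call of snoRNA:Psi28S-1175a (1.99, 0.263) were then lost.

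**Figure D3:**
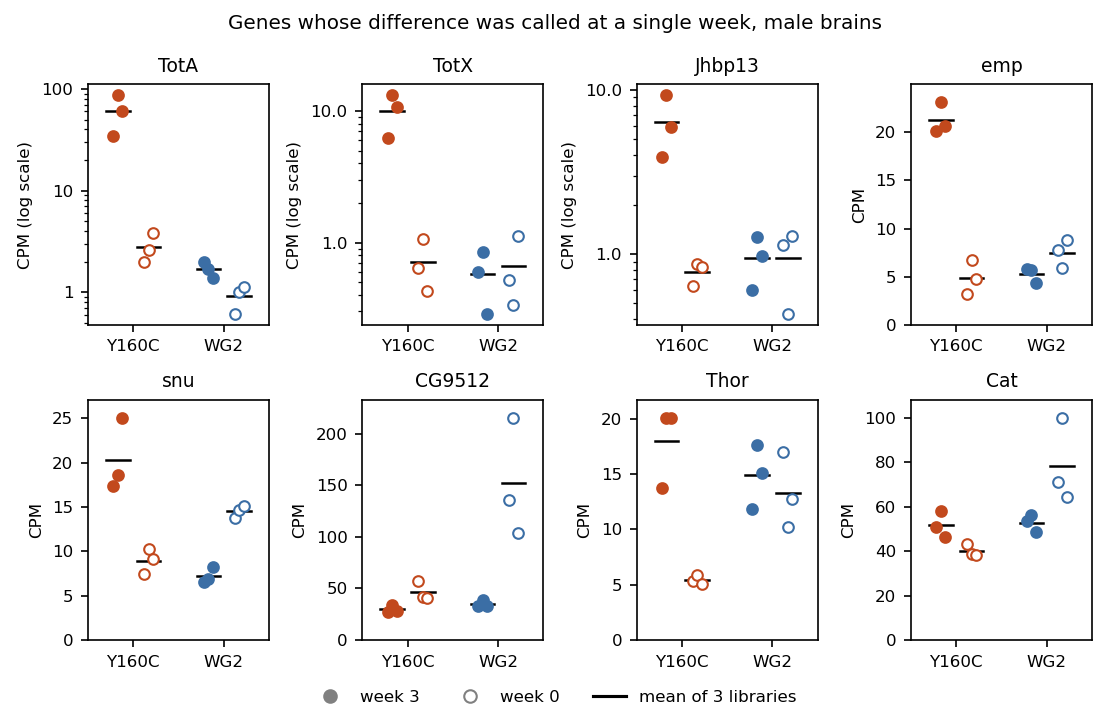
CPM of 8 genes called at a single week in the 12 male libraries, with Y160C (orange) left of WG2 (blue), filled circles for week 3, open circles for week 0 and a line at the mean of 3 libraries; the axes of TotA, TotX and Jhbp13 are logarithmic. TotA, TotX, Jhbp13, emp and snu are high in the 3 Y160C week 3 libraries, and CG9512, Thor and Cat are lower in Y160C than in WG2 at week 0.

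The female libraries are a set apart from those of the males. Their comparison was fitted together with the 12 male libraries, which shared its filter, scaling and spread. The female calls are therefore not independent of the male libraries. All 15 genes called in males had the same sign in females, where 74.6% of the 13989 genes tested in both sexes did, and 12 of the 15 were called in females too. In females 17 genes were called of 15374 tested (0.111%), 15 higher (0.0976%) and 2 lower (0.013%), so the shared 12 were 80% of the male and 70.6% of the female calls. In females, bib averaged 17.95 ± 1.83 CPM in Y160C and 39.5 ± 3.75 CPM in WG2 (-1.14 ± 0.09, adjusted p 5.62e-08), and lncRNA:CR13130 0.935 ± 0.371 CPM in Y160C and 6.28 ± 0.652 CPM in WG2 (-2.73 ± 0.24, adjusted p 4.25e-07; SD, n = 6 each). snoRNA:Psi28S-3436a averaged 134 ± 24.5 CPM in Y160C females and 32.9 ± 10.5 CPM in WG2 females (2.07 ± 0.15, adjusted p 2.38e-08). CG18661 (-0.39, adjusted p 0.921), Jheh3 (-0.60, adjusted p 0.114) and CG13126 (-0.14) were called in males and not in females, and for none of the 15 was the difference between the sexes called.

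The genotype difference itself differed between males and females for 1 gene of 15374 (0.0065%), TotA. In males over both weeks TotA ran from 1.98 to 86.3 CPM in Y160C and from 0.614 to 1.97 CPM in WG2, and in females from 0.263 to 1.003 CPM in Y160C and from 0.507 to 2.38 CPM in WG2. The log2 fold change in males minus that in females was 4.13 ± 0.50 (adjusted p 0.00210); 109 genes had an unadjusted p under 0.05 (0.709%). Without WG2 female week 3 replicate 2 this call was lost (3.99, adjusted p 0.0681). The same difference for TotX was 2.99 ± 0.81 and not called.

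**Figure D4:**
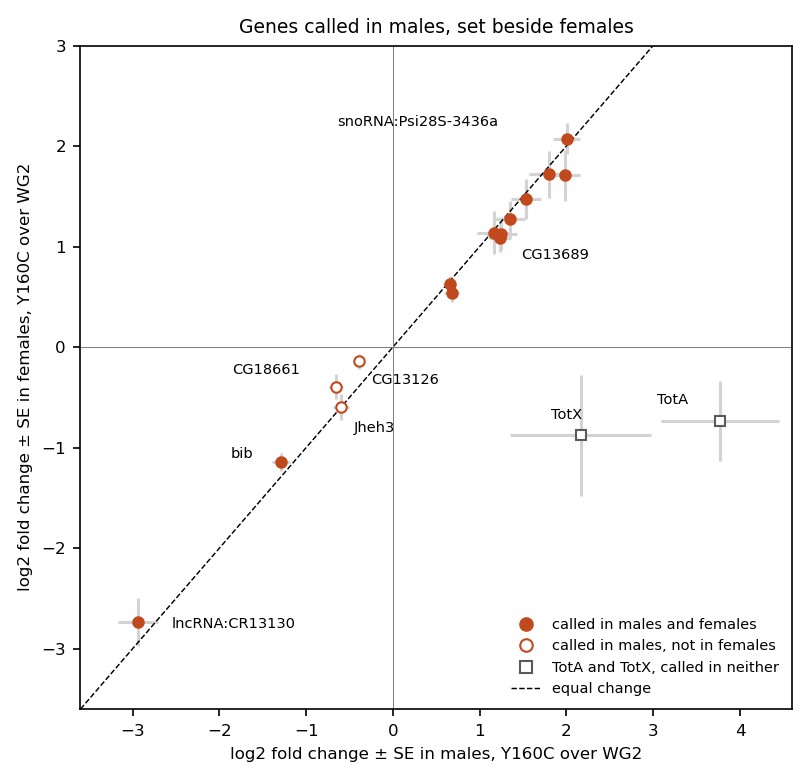
Log2 fold change ± SE of Y160C over WG2 in males (horizontal) and females (vertical) for the 15 genes called in males (circles, filled where called in females too) and for TotA and TotX over both weeks (squares), with a dashed line of equal change. The 15 genes have the same sign in both sexes, while TotA and TotX are above 0 in males only, with -0.73 and -0.88 in females.

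The 3 Naglu genotypes were set beside each other in males. The comparisons with WG2 share the same 6 WG2 libraries, so the direct comparison of Y160C with the other mutants is given as well. It reuses the 6 Y160C libraries by which the 15 genes were called, so for those genes it is not an independent test. Against KO males, 23 of 15130 genes were called (0.152%), 11 higher (0.0727%) and 12 lower (0.0793%) in Y160C. Against W422X males 21 were called (0.139%), 12 higher (0.0793%) and 9 lower (0.0595%), a count that was 34 or 38 without Y160C week 3 replicate 1 or 3. Of the 15 genes called against WG2, 8 were called in the same direction against KO and 7 against W422X. The lncRNA:CR13130 level was 7.54 ± 2.17 CPM in KO and 7.37 ± 0.970 CPM in W422X (SD, n = 6 each), and Y160C lay below KO by -2.90 ± 0.21 (adjusted p 6.86e-09) and below W422X by -2.87 ± 0.21 (adjusted p 8.51e-09). The bib level was 38.95 ± 4.76 CPM in KO and 40.4 ± 1.22 CPM in W422X, and Y160C differed from KO by -1.24 ± 0.09 (adjusted p 1.37e-08) and from W422X by -1.30 ± 0.09 (adjusted p 8.51e-09). snoRNA:Psi28S-3436a was higher in Y160C than in KO by 1.97 ± 0.13 (adjusted p 2.14e-09) and than in W422X by 2.02 ± 0.13 (adjusted p 2.04e-09).

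Other genes of the 15 were called in a further mutant as well. Against WG2, 29 genes were called in KO (0.192%), 20 higher (0.132%) and 9 lower (0.0595%), and 28 in W422X (0.185%), 21 higher (0.139%) and 7 lower (0.0463%). CG9886 averaged 19.5 ± 0.964 CPM in Y160C, 18.96 ± 2.35 CPM in KO and 21.1 ± 1.46 CPM in W422X, against 12.4 ± 1.09 CPM in WG2, and was called in each against WG2, with log2 fold changes of 0.65 in Y160C, 0.62 in KO and 0.77 in W422X. Ugt36D1 averaged 15.3 ± 1.18 CPM in Y160C, 15.4 ± 3.48 CPM in KO and 15.1 ± 1.22 CPM in W422X, against 9.59 ± 1.25 CPM in WG2 (0.68 in Y160C, 0.68 in KO and 0.66 in W422X, each called). For CG9886, Y160C differed from KO by 0.03 ± 0.08 and from W422X by -0.13 ± 0.08. For Ugt36D1, Y160C differed from KO by -0.01 ± 0.10 and from W422X by 0.01 ± 0.10. CG13689 was shared with W422X, at 7.75 ± 0.811 CPM (1.18 ± 0.16 against WG2, called), while KO had 3.95 ± 1.06 CPM and Y160C lay 1.01 ± 0.15 above it (adjusted p 0.00123). CG18661 was shared with KO, at 9.38 ± 1.21 CPM (-0.58 ± 0.09 against WG2, called), while W422X had 14.4 ± 1.42 CPM and Y160C lay below it (-0.71 ± 0.09, adjusted p 1.34e-04). TotA averaged 16.5 ± 17.5 CPM in KO and 4.23 ± 3.35 CPM in W422X over both weeks, and Y160C was higher than W422X (2.11 ± 0.27, adjusted p 2.96e-04) and not called against KO (0.79 ± 0.25, adjusted p 0.870).

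**Figure D5:**
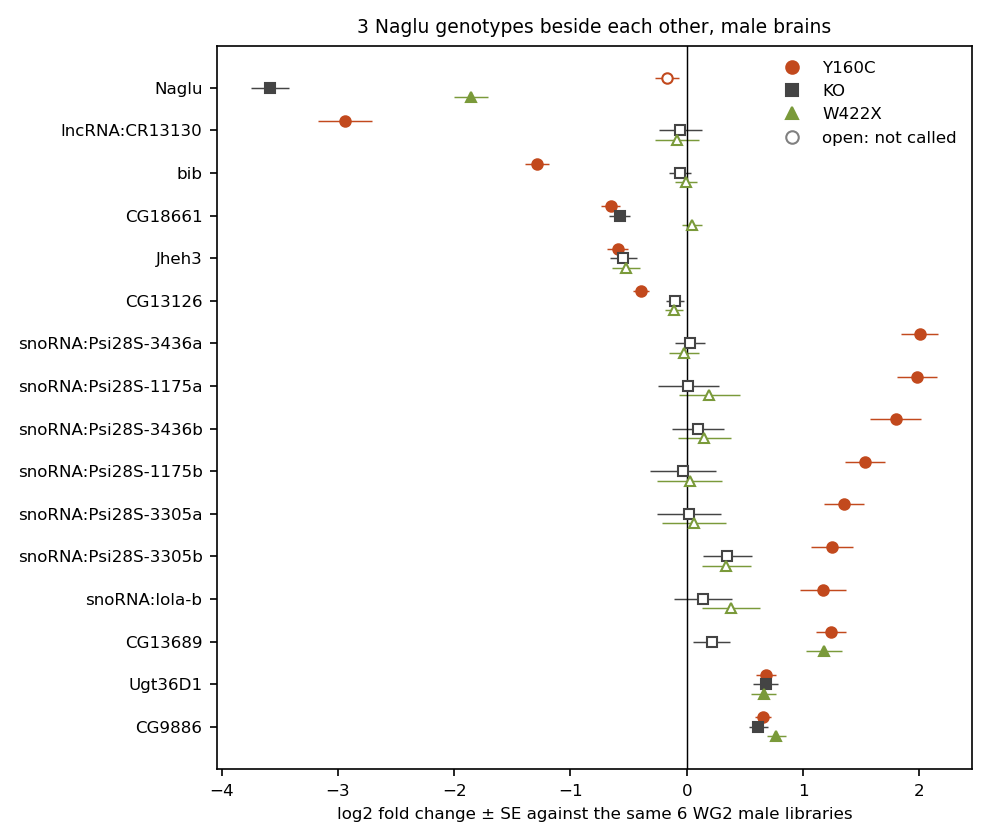
Log2 fold change ± SE in males of Y160C (circles), KO (squares) and W422X (triangles) against the same 6 WG2 libraries for Naglu and the 15 genes called in Y160C, with open symbols where not called. For lncRNA:CR13130, bib and the snoRNAs only the Y160C symbol is filled, CG9886 and Ugt36D1 are filled in all 3 genotypes, and Naglu is low in KO and W422X.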

How the data were processed

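RNA-seq counts from 12 male brain libraries (20 brains each, ribosomal RNA depleted, Tecan Universal Plus kit, per the labels' protocols) were compared. The authors deposited raw counts of reads per gene for 48 libraries with gene lengths; Subread appears, with no version, among the tools per the submitters' processing notes. The aligner, build, annotation, strand setting and read filters are not given in the sources used here. The table held 0 columns of other samples. Of 17490 identifiers, 17288 matched a symbol and position in the Ensembl BDGP6.54 annotation (release 115), by gene ID. No sequences were used.

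Counts were tested in R 4.3.3 with edgeR 4.0.16: filterByExpr (minimum count 10, minimum total 15; 13992 genes kept, 3498 not), TMM factors, glmQLFit with robust=TRUE, and glmQLFTest with week and genotype over the 12 libraries. Contrasts by week used a mean for each of the 4 groups. Those with females, or with KO and W422X, were fitted on 24 libraries each. All p-values were Benjamini-Hochberg adjusted over all genes tested and called under 0.05; the SE was taken as the absolute log2 fold change over the root of the F statistic. The named genes are Naglu, up to 12 called genes at each end with a mean of at least 1 CPM and the same sign at both weeks, up to 2 called members per list, up to 5 at each end within a week, and up to 6 for the differences by week and sex; other genes were named after their values were seen. The comparison, the 42 gene lists and the tests were chosen with earlier results of these data known. Of the list entries, 52 matched no gene. The test was checked on simulated data. No 2 libraries of a group agreed within sampling noise (chi-square per gene at least 13.7). Alternatives used limma 3.58.1 and DESeq2 1.42.0. Sums of marker genes and the libraries standing apart are in CPM on plain library totals.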

Additional observations from a re-analysis of the deposited data

Results flagged for a closer look

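Single libraries lay far from the others of their genotype in 7 of 80 groups of 6 male libraries examined. Chance would give about 1 in 20 (about 4 here) for independent groups without an effect of age. These groups mixed both weeks and reused the same libraries, so that figure cannot serve as a test. Y160C week 0 replicate 2 had 55801160 counts, the next Y160C library 31380065. Y160C week 3 replicate 3 stood out in the share of counts in genes under 0.5 CPM (0.2671%, next 0.1048%), in photoreceptor markers (7735 CPM, next 3869 CPM) and in cuticle and trachea markers (568.1 CPM, next 267.4 CPM). WG2 week 3 replicate 1 stood out in the summed pseudouridylation guides (1732 CPM, next 721 CPM) and methylation guides (71.12 CPM, next 30.88 CPM), and WG2 week 0 replicate 3 in gut enzyme genes (257.6 CPM, next 147.2 CPM). The part of these libraries in the genotype differences is given by the counts without them.

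The genotype difference depended on week for snu (2.1802, week 3 minus week 0, on the log2 scale) and emp (2.6107). It depended on sex for TotA (4.1301, males minus females).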

How the results depend on the processing

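None of the 37 named results changed sign in any alternative. The count for Y160C against WG2 in males was 12 to 27 when a library was left out; 5 libraries with over 0.05% of counts in rarely expressed genes (Y160C week 0 replicates 2 and 3 and week 3 replicate 3, WG2 week 0 replicates 1 and 3) were also left out together, and that share was used as a covariate, both chosen after seeing the data. Over the settings other than the removal of a single library, the count ran from 11 to 56. It was 56 with DESeq2 (37 higher, 19 lower), 25 with all 48 libraries in the model (21 higher, 4 lower), 42 with the share as covariate and 42 with limma voom and sample weights. At week 3 it was 8 to 78 without a library, 79 with DESeq2 and 34 with the covariate. At week 0 it was 6 to 83 without a library, 87 with DESeq2 (26 higher, 61 lower), 12 with all 48 libraries, 5 without the 5 libraries and 110 with the covariate (28 higher, 82 lower). For the difference by week it was 1 to 54 without a library, 56 with DESeq2, 4 with all 48 libraries, 0 without the 5 libraries and 7 with the covariate. For the difference by sex it was 0 to 1 without a library, 2 with DESeq2 and 0 without the libraries over that share. In females it was 12 to 21 without a library, 41 with DESeq2, 28 with all 48 libraries, 11 without the libraries over that share and 44 with the covariate. Against KO it was 16 to 34 without a library, 52 with DESeq2 and 51 with the covariate. Against W422X it was 18 to 38 without a library, 32 with RLE factors, 812 with DESeq2 and 45 with the covariate. The cause of these differences was not tested. Without the libraries over that share, 20 named calls were lost: over both weeks snoRNA:Psi28S-1175a (adjusted p 0.0952), snoRNA:Psi28S-3436b and snoRNA:Psi28S-3305b (0.0713 each), snoRNA:Psi28S-3305a and Jheh3 (0.0514 each), snoRNA:lola-b (0.0821) and CG13126 (0.697); at week 3 TotA (0.282), Jhbp13 (0.111), snoRNA:Psi28S-1175a (0.263) and CG18661 (0.220); at week 0 snoRNA:Psi28S-3436b (0.0619), snoRNA:Psi28S-1175a (0.504), CG13689 (0.0905), lncRNA:CR13130 (0.0550), bib (0.101) and Thor (0.999); snu and emp by week (0.0563 each); and TotA by sex (0.9999). With all 48 libraries, 9 were lost: CG13126 (0.0516); at week 3 Jhbp13 (0.0952), emp (0.561) and CG18661 (0.143); at week 0 CG9512 (0.0516), Thor (0.205) and Cat (0.615); and by week snu (0.0598) and emp (0.951). With the tube number of the labels as a block, 18 genes were called in males, and snoRNA:Psi28S-3305b (0.106), snoRNA:lola-b (0.101), Jheh3 (0.267) and CG13126 (0.565) lost their calls. Replicate numbers were shared by the groups, but 1 of 6 same-numbered correlations was above 0.1 (-0.728 to 0.349) and 0 libraries correlated best with their own number. With the number as a replicate block, the counts were 16 in males, 12 at week 3, 17 at week 0, 3 by week, 1 by sex, 16 in females, 23 against KO and 19 against W422X. Low counts limit several genes: in WG2, TotX had 5 to 21 reads, Jhbp13 9 to 35, TotM 1 to 11, TotC 0 to 17 and snoRNA:Psi28S-3305b 18 to 49.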

Other observations

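Without Y160C week 3 replicate 3, 12 further genes were called between Y160C and WG2 males, chosen for mention after their values were seen. Among them were 4 more snoRNAs: snoRNA:Psi18S-1347a (0.94, adjusted p 0.00242), snoRNA:Psi18S-841c (2.05, adjusted p 0.0245), snoRNA:lola-c (1.72, adjusted p 0.00436) and snoRNA:lola-d (1.27, adjusted p 0.0409). The ribosomal protein gene RpS21 was higher (0.53 ± 0.08, adjusted p 0.00371), at 169 and 143 CPM in Y160C at week 3 and week 0, against 129 and 91.9 CPM in WG2. The recognition gene dpr18, of the immunoglobulin family that labels synaptic partners, was lower (-0.42 ± 0.08, adjusted p 0.0347), and so were the matrix protease gene AdamTS-B (-0.87 ± 0.14, adjusted p 0.0210) and Acp1 (-3.29 ± 0.53, adjusted p 0.00910). Acp1 was near 0 at week 3, at 0.0202 CPM in Y160C and 0.0768 CPM in WG2. At week 0 it averaged 0.287 CPM in Y160C and 3.35 CPM in WG2. Over all 12 libraries its edgeR adjusted p was 0.756.

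In females, 5 snoRNAs were called that were not called in males, all with the same sign in males: snoRNA:Psi28S-3316d (1.40 in males, 1.66 in females), snoRNA:Psi18S-841b (1.076 in males, 1.319 in females), the snoRNA FBgn0263459 (1.30 in males, 1.29 in females), snoRNA:Psi18S-1854a (0.95 in males, 1.16 in females) and snoRNA:Psi18S-1347b (0.81 in males, 1.16 in females). Their difference between the sexes was not called.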
